A study of Mus musculus with 3 samples.

Results

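The genes described here run the cell division cycle and DNA replication: cyclins, cyclin-dependent kinases (CDKs) and their inhibitors, origin and helicase subunits, and the kinetochore, checkpoint and exit genes of mitosis. They were chosen by gene symbol (families Ccna, Ccnb, Ccnd, Ccne, Ccnf, Ccng, Cdk, Cdc, Mcm, Bub, Cenp, Orc, Aurk and Plk, with Pcna, Top2a, Mki67, Rrm1 and Rrm2, and without Cdc42 and its effectors). Of 74 matching genes on the array, 60 had a value on all 3 arrays and are the members, among 3493 genes tested. They comprised 14 replication genes, 24 mitosis genes, 8 cyclins, CDKs and partners of G1 and S phase, 2 CDK inhibitors and 12 other matches of the symbols.

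Each array was a two-colour hybridisation of RNA from a castrated C57BL/6 mouse given a testosterone pellet against RNA from a matched placebo mouse (n = 3 pairs, T1, T2 and T3). All mice of the design were castrated, so the placebo mice lacked testicular androgen as well; the labels give castration at 7 weeks, collection at 17 weeks, and 4 weeks of treatment with pellets of 12.5 mg releasing over 60 days. The tissue is labelled bone marrow, and the RNA came from pulverized femurs, tibias and humeri, so bone and marrow cells were measured together. Testosterone RNA carried Cy5 on T1 and T3 and Cy3 on T2. Values are deposited log ratios, read here as log2 of testosterone over placebo, so that a negative value means less RNA with testosterone. This direction is likely but not settled, because only the series' description of testosterone as the experimental channel gives it, and base 2 was taken from the spread of the values. A natural log would make every fold given here larger. The columns hold ratios, so that no level of a gene can be given and the labelled tissue could not be checked against absolute marker levels. Of 11552 spots, T1 had values at 9007, T2 at 6771 and T3 at 6982, and the number of arrays limits the precision. Across all genes the ratios lay slightly below 0 (median -0.070, with T1 -0.037, T2 -0.12 and T3 -0.055). Tests, intervals and signs are against 0, and only the centred alternatives take that shift out. The deposited values spread most widely on T2 (SD 0.50, with 0.30 on T1 and 0.33 on T3).

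A dividing cell licenses its origins in G1 phase, when the origin recognition complex, Cdc6 and Cdt1 load the MCM ring onto DNA. Cyclins with CDKs then start synthesis, during which Cdc45 activates the ring as the replicative helicase and Pcna clamps the polymerases. In mitosis the centromere histone Cenpa and the Cenp proteins bound to it hold the kinetochore, Bub kinases watch over its attachment, and Cdc20 with the anaphase-promoting complex ends the phase. Marrow is among the fastest dividing tissues of an adult, through its red cell, granulocyte and B-cell precursors. E2F factors drive many genes of the start of S phase, and the CHR element (cell cycle genes homology region) with CCAAT boxes serves many genes of mitosis.

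Of the 60 members, 2 passed as lower with testosterone and 0 as higher by limma (Benjamini-Hochberg adjusted p under 0.05 over all genes), which is 3.33% against 5.15% of all genes tested (3.32% lower and 1.83% higher). Both, the kinase Cdk19 and the cyclin Ccng2, belong to the other matches, and 0 of the 14 replication and 0 of the 24 mitosis genes passed. At an unadjusted p under 0.05 there were 11 members, 18.3%, against 28.1% of all genes. Small ratios of 1 sign were common: 30 members (50%) were below 0 on all 3 arrays, against 33.9% of all genes, 6 (10%) were above 0 on all 3, against 18.2%, and 24 changed sign between arrays. In all, 44 of 60 means were below 0 (73.3%, against 62.3% of all genes). This depends on the sign of T2, which carried the dyes the other way. With T2 turned, 33 of 60 members and 1678 of 3493 genes were below 0, and the members' median was -0.0044. As deposited, T2 had a positive correlation over all genes with T1 (0.43) and with T3 (0.73), beside 0.50 between T1 and T3. The B-lineage markers described further below also had medians of 1 sign as deposited (T1 -2.11, T2 -2.16 and T3 -1.60). T2 thus ran the same way as the other arrays, and turning it makes its correlations negative by construction. The members' median was -0.10 (T1 -0.094, T2 -0.13 and T3 -0.079), and after each array was centred on its own median it was -0.032. In bulk tissue, fewer cells of a dividing type and less RNA per cell cannot be told apart.

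By role, the median of the means was -0.098 for replication (10 of 14 below 0) and -0.080 for mitosis (16 of 24 below 0), close to each other and to the -0.070 of all genes. It was -0.099 for the G1 and S phase cyclins and CDKs (7 of 8 below 0) and -0.13 for the other matches (10 of 12 below 0). With T2 turned, 7 of 14 replication, 14 of 24 mitosis, 5 of 8 G1 and S phase and 5 of 12 other genes were below 0, and the medians of replication (0.0090) and of the other matches (0.034) lay above 0. The replication median was lowest on T1 (-0.18, with -0.12 on T2 and -0.058 on T3), while the mitosis median differed little between pairs (T1 -0.055, T2 -0.053 and T3 -0.079). These medians hide opposite members, which the plot by role shows and which the following paragraphs take in turn.

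**Figure D1:**
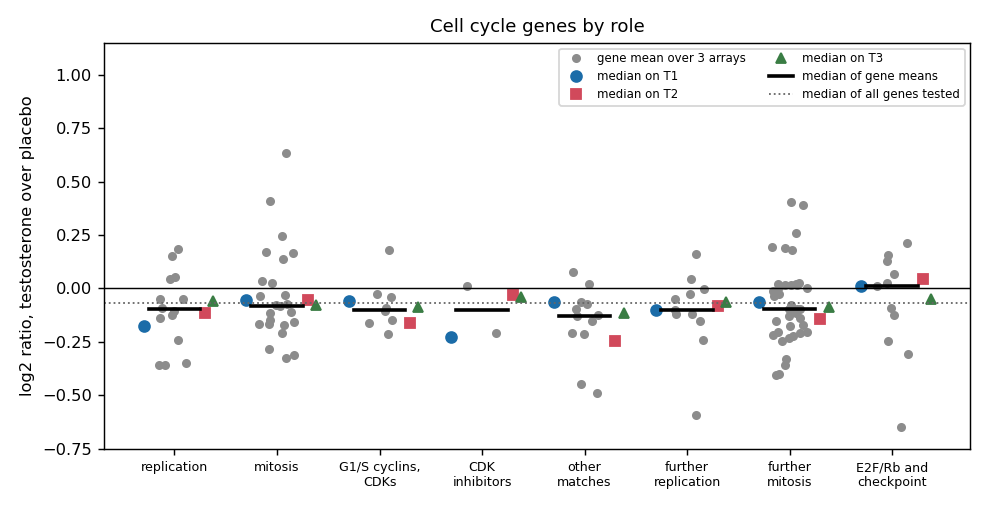
Mean log2 ratio of testosterone over placebo (vertical axis) of each gene by role (grey points, n = 3 arrays), for the 60 members and for 3 lists of further pathway genes; black bars are medians of the gene means, coloured symbols the medians on T1, T2 and T3, and the dotted line the median of all genes tested (-0.070). Replication reaches from -0.36 to 0.18 and mitosis from -0.33 to 0.63.

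Among the replication genes the subunits of the MCM helicase stood together on the low side. Mcm2, Mcm3, Mcm4, Mcm5, Mcm6 and Mcm7, which form the hexameric ring that unwinds DNA at the fork, were each below 0 in every pair. Of all genes, 33.9% were below 0 on all 3 arrays. All 18 gene values and 29 of 30 single spot values of the subunits were below 0. The spots of a subunit were of 1 probe on the same arrays, so they repeat the gene values. By limma 0 of the 6 passed over all genes, and 3 (50%) had an unadjusted p under 0.05, against 28.1% of all genes. The group was singled out after its values were seen. The median over these subunits was -0.29 (T1 -0.27, T2 -0.47 and T3 -0.15). After median centring all 6 means were still below 0, with a median of -0.23.

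Mcm5 had ratios of -0.39 in T1, -0.53 in T2 and -0.15 in T3. Its mean was -0.36 ± 0.19 (SD, n = 3; 1.28-fold lower; 95% interval -0.61 to -0.10; adjusted p = 0.0928 by limma). All pairs were low, T2 most and T3 least. Mcm3 stood at -0.26 in T1, -0.57 in T2 and -0.25 in T3 (mean -0.36 ± 0.18, adjusted p = 0.0915). Mcm7 read -0.33 in T1, -0.57 in T2 and -0.14 in T3 (mean -0.35 ± 0.22, adjusted p = 0.107). These 3 subunits were lowest in T2, where each was below -0.5, and lay among the lowest 8% of genes: 7.39% of all genes had a lower mean than Mcm5, 7.41% than Mcm3 and 7.8% than Mcm7. Mcm2, which with Mcm5 forms the gate of the ring, was at -0.28 in T1, -0.40 in T2 and -0.042 in T3 (mean -0.24 ± 0.18, adjusted p = 0.194). The other two subunits, of the catalytic core, lay near the median of all genes. Mcm6 had -0.20 in T1, -0.0050 in T2 and -0.17 in T3 (mean -0.12 ± 0.10), and Mcm4 had -0.095 in T1, -0.13 in T2 and -0.090 in T3 (mean -0.10 ± 0.021). The ratios within this complex were thus unequal, Mcm3, Mcm5 and Mcm7 lying lower than Mcm4 on every array and lower than Mcm6 on T1 and T2, while on T3 Mcm6 lay below Mcm5 and Mcm7; differences between subunits were not tested.

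Leaving out T1 brought Mcm3 past the threshold (mean -0.41, adjusted p = 0.038 by limma), a step that raised the count over all genes from 180 to 637, while without T2 it had -0.25 (adjusted p = 0.327) and without T3 -0.41 (adjusted p = 0.29). With the sign of T2 turned Mcm2, Mcm3 and Mcm7 were just above 0.

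The promoters of Mcm3, Mcm5 and Mcm7 are shown because these are the lowest replication genes and hold the E2F words. RefSeq promoters of GRCm38.p6, from 250 bases before the start to 50 after it, were matched for 55 of the 60 members, using the first entry of each gene. They were searched on both strands for the E2F words TTTCCCGC, TTTCGCGC, TTTGCCGC and TTTGGCGC, for the CHR words TTTGAA and TTCGAA, and for CCAAT. Matches are in capitals, in either orientation; in Mcm5 a pair of E2F words on opposite strands overlaps, and in Mcm7 an E2F word overlaps a CCAAT.
Mcm3 (chr1:20820263-20820562, minus strand): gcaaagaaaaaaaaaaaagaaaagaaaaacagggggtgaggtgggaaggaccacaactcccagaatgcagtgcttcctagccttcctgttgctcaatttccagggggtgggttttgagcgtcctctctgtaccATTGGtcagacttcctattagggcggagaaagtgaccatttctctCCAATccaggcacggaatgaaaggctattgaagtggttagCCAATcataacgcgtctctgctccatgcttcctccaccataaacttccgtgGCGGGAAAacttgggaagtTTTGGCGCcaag
Mcm5 (chr8:75109259-75109558, plus strand): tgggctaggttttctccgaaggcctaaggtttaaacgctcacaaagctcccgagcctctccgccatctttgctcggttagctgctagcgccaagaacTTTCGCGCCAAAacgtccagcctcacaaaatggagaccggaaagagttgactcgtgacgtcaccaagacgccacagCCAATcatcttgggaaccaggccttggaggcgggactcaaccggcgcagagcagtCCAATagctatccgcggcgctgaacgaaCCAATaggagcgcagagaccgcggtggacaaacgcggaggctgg
Mcm7 (chr5:138171834-138172133, minus strand): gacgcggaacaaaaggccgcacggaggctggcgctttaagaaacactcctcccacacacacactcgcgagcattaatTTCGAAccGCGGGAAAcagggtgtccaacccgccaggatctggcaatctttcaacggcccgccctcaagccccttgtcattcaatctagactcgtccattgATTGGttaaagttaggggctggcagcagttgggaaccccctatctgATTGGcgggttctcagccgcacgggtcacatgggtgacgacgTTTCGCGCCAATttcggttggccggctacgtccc
An E2F word was found in 4 of the 5 promoters matched for Mcm2 to Mcm7 and in 6 of 13 replication promoters (46.2%), against 3 of 23 mitosis promoters (13%), 4.78% of the 2844 promoters of genes tested and 2.32% of all 27025 promoters. The window of Mcm2 held none of the E2F words, and Mcm4 was not matched. The word was in the 3 lowest replication genes, Mcm3, Mcm5 and Mcm7, and in Mcm6. It was also in Cdc6 (mean 0.046) and Orc3 (-0.14), and not in Mcm2 (-0.24). Whether the word goes with the ratio was not tested. A match describes letters only and says nothing of binding.

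The remaining 8 replication genes had no shared direction, with a median of -0.00070 and 4 means on each side of 0. Among origin recognition subunits, Orc6 was above 0 in every pair (0.12 in T1, 0.24 in T2 and 0.19 in T3; mean 0.18 ± 0.057, adjusted p = 0.25). Orc3 was below 0 in every pair (-0.18 in T1, -0.21 in T2 and -0.031 in T3), as was Orc4 (-0.22 in T1, -0.031 in T2 and -0.017 in T3). Orc2 had -0.13 in T1, 0.44 in T2 and 0.15 in T3, a range wider than its mean of 0.15. The 4 measured subunits thus did not share a sign, and none passed.

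The licensing factor Cdc6 had -0.025 in T1, 0.033 in T2 and 0.13 in T3 (mean 0.046 ± 0.079). Cdc45, which joins the MCM ring in the active helicase, had 0.11 in T1, -0.10 in T2 and -0.15 in T3, above 0 in T1 alone. The sliding clamp Pcna had -0.17 in T1, 0.10 in T2 and -0.074 in T3 (mean -0.048 ± 0.14, 95% interval -0.29 to 0.19). Its interval reaches to either side of 0 and leaves room for a change of about the size seen at Mcm2. Rrm2, the S-phase subunit of ribonucleotide reductase, had 0.14 in T1, -0.13 in T2 and 0.15 in T3 (mean 0.055 ± 0.16, 95% interval -0.19 to 0.30). T2 was opposite in sign to the other pairs for both Pcna and Rrm2.

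**Figure D2:**
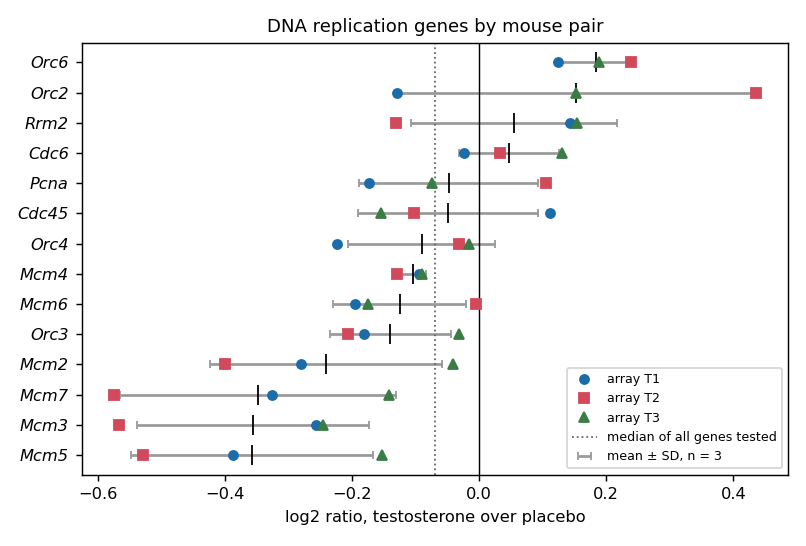
Log2 ratio of testosterone over placebo (horizontal axis) of the 14 replication genes on T1 (circles), T2 (squares) and T3 (triangles), with the mean (tick) and SD (bar, n = 3); the dotted line is the median of all genes tested. The 6 Mcm genes lie below 0 on every array, and Orc6 alone lies above 0 on every array.

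Mitosis genes held the highest member of all, Bub1, and spread to both sides of 0. Of 24, 11 were below 0 on all arrays (45.8%, against 33.9% of all genes). Another 5 were above 0 on all arrays (20.8%, against 18.2% of all genes) and 8 changed sign. Bub1, the kinase that recruits checkpoint proteins to unattached kinetochores, had 0.21 in T1, 1.07 in T2 and 0.62 in T3. Its mean was 0.63 ± 0.43 (1.55-fold; 95% interval 0.27 to 0.999; adjusted p = 0.057 by limma), and 98.8% of genes had a lower mean. Every pair was above 0, with T1 far below T2, and Bub1 was read at 1 spot only. Bub1b, its relative in the checkpoint complex that holds back Cdc20, had -0.094 in T1, 0.063 in T2 and -0.077 in T3 (mean -0.036 ± 0.086), its pairs on both sides of 0.

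Cenpa, the histone H3 variant that marks the centromere, had 0.27 in T1, 0.56 in T2 and 0.39 in T3 (mean 0.41 ± 0.15, 1.33-fold, adjusted p = 0.0615). This rests on unequal probes: one spot read 0.33, 1.18 and 0.60 on T1, T2 and T3, and the other 0.21, -0.054 and 0.18. Its spots thus part on T2. Bub1 and Cenpa both passed without T1 (means 0.85 and 0.48, adjusted p = 2.75e-05 and 0.0122 by limma). That step raised the count over all genes from 180 to 637. With a dye term, for which T2 was the only Cy3 array, the estimates were 0.74 for Bub1 and 0.45 for Cenpa. Turning the sign of T2 gave Bub1 a mean of -0.082. Without T2 the means were 0.41 and 0.33 (adjusted p = 0.26 for both), and without T3 0.64 and 0.42 (adjusted p = 0.27 and 0.29).

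The other members above 0 in every pair were subunits of the inner kinetochore and the proliferation antigen. Cenpq had 0.40 in T1, 0.20 in T2 and 0.13 in T3 (mean 0.24 ± 0.14, adjusted p = 0.172), and its partner Cenpu had 0.18 in T1, 0.22 in T2 and 0.11 in T3 (mean 0.17 ± 0.055). Mki67, the Ki-67 antigen that coats mitotic chromosomes and marks cycling cells, had 0.15 in T1, 0.14 in T2 and 0.20 in T3. The pairs of Mki67 lay close together (mean 0.16 ± 0.034, 95% interval -0.058 to 0.39, adjusted p = 0.294), on the opposite side of 0 from the MCM genes.

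On the low side, Cenpm, a subunit of the inner kinetochore, had -0.45 in T1, -0.17 in T2 and -0.36 in T3 (mean -0.33 ± 0.14, 1.25-fold lower, adjusted p = 0.0976). Cdc20, the activator of the anaphase-promoting complex, had -0.20 in T1, -0.53 in T2 and -0.20 in T3 (mean -0.31 ± 0.19, adjusted p = 0.123). Cenpn, which binds the Cenpa nucleosome, had -0.29 in T1, -0.41 in T2 and -0.14 in T3 (mean -0.28 ± 0.14, adjusted p = 0.131). None of these passed, though each lay below the median of all genes in every pair. Cdk1, the kinase that starts mitosis, had -0.23 in T1, -0.31 in T2 and -0.094 in T3 over 3 spots (mean -0.21 ± 0.11, adjusted p = 0.213). Its cyclin Ccnb2 had -0.16 in T1, -0.29 in T2 and -0.051 in T3 (mean -0.17 ± 0.12). The kinase and its cyclin ran in the same order of pairs, T2 lowest and T3 nearest to 0, as Mcm2, Mcm3, Mcm5 and Mcm7 did. T2 also had the widest spread and the lowest median over all genes, so this order is not particular to these genes.

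The 12 Cenp members ranged from -0.33 (Cenpm) to 0.41 (Cenpa), with 7 means below 0, and Cenpa and Cenpn, whose proteins touch, lay on opposite sides. Cenpk, of the inner kinetochore, had the widest spread of them (-0.22 in T1, 0.27 in T2 and -0.28 in T3). Aurkb, the Aurora kinase of the chromosomal passenger complex, had 0.058 in T1, -0.39 in T2 and -0.12 in T3 over 4 spots (mean -0.15 ± 0.22). Cdc26 (mean -0.16) and Cdc27 (-0.077), subunits of the anaphase-promoting complex, and the phosphatase Cdc25b (-0.17), which activates Cdk1, were below 0 in every pair. The kinesin Cenpe (-0.11), Cenpo (-0.11) and Cenpx (-0.17) were below 0 in every pair as well. Cenpf (-0.082), Cenpl (0.027), Cenph (0.034) and the phosphatases Cdc14a (-0.032) and Cdc14b (0.14) changed sign between pairs.

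The promoters of Bub1, Cenpa and Cdc20 are shown because these mitosis genes lie at both ends of the range and hold the same letters, a CHR word with a pair of CCAAT boxes upstream or beside it.
Bub1 (chr2:127831810-127832109, minus strand): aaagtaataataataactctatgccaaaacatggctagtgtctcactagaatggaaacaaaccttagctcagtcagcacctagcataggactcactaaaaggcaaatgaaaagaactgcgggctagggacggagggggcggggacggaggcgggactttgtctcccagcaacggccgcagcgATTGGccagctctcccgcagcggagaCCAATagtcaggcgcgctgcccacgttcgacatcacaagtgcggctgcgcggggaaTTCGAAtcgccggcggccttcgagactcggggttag
Cenpa (chr5:30666636-30666935, plus strand): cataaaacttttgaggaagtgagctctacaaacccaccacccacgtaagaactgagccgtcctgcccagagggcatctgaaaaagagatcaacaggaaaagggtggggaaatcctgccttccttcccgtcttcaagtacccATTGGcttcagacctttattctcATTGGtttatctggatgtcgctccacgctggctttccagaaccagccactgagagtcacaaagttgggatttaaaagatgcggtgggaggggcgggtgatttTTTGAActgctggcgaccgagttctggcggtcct
Cdc20 (chr4:118437294-118437593, minus strand): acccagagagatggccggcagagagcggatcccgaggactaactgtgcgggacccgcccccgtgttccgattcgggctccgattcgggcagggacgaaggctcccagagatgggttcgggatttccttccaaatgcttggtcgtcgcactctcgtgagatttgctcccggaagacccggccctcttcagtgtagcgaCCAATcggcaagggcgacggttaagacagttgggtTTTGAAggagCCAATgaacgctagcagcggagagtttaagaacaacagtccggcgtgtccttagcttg
A CHR word stood in 13 of 23 mitosis promoters (56.5%), in 3 of 13 replication promoters (23.1%), in 14.6% of promoters of genes tested and in 19.4% of all promoters. CCAAT stood in 20 of 23 mitosis promoters (87%) and 10 of 13 replication promoters (76.9%), against 40% of promoters of genes tested and 37.9% of all. The CHR letters were found at genes above 0 (Bub1, Cenpa and Mki67) and at genes below 0 (Cdc20, Cenpm, Cenpn, Cdk1 and Ccnb2). Mitosis genes without them also lay above 0 (such as Cenpq and Cenpu) and below 0 (such as Cdc26 and Cenpx). Whether the letters go with the ratio was not tested.

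**Figure D3:**
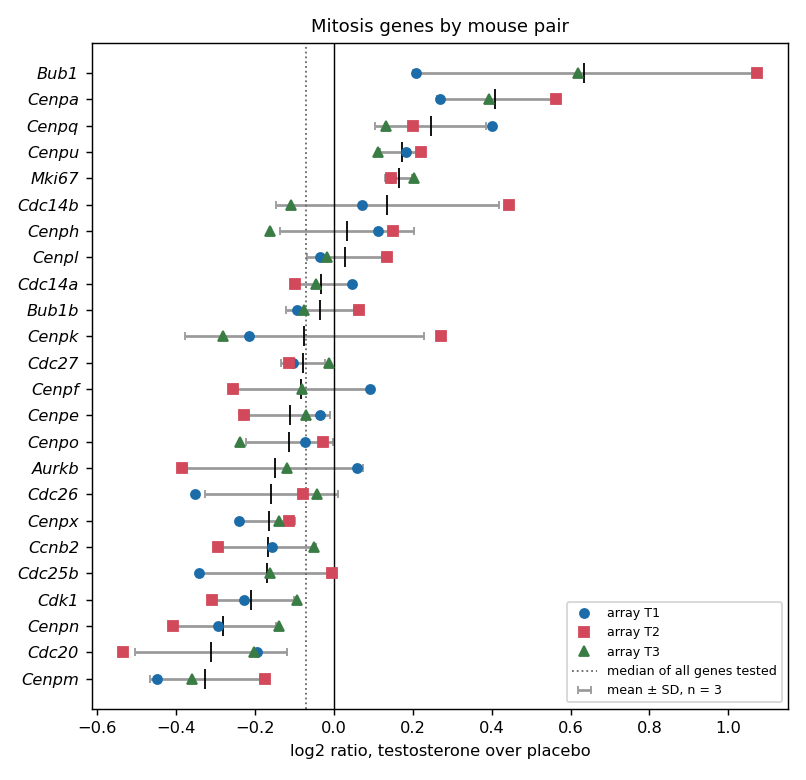
Log2 ratio of testosterone over placebo (horizontal axis) of the 24 mitosis genes on T1 (circles), T2 (squares) and T3 (triangles), with the mean (tick) and SD (bar, n = 3); the dotted line is the median of all genes tested. Bub1 spans 0.21 to 1.07, and 5 genes from Mki67 to Bub1 lie above 0 on every array.

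Of the cyclins and CDKs of G1 and S phase, 7 of 8 means were below 0 and none passed. The lowest was Cdc34, the ubiquitin-conjugating enzyme that works with SCF ligases to remove CDK inhibitors (-0.17 in T1, -0.28 in T2 and -0.18 in T3; mean -0.21 ± 0.057, adjusted p = 0.198). Cdk4, the kinase of D-type cyclins, had -0.083 in T1, -0.29 in T2 and -0.073 in T3 (mean -0.15 ± 0.12), and its cyclin Ccnd3, needed in lymphoid precursors, had -0.044 in T1, -0.11 in T2 and -0.13 in T3 (mean -0.094 ± 0.044). Each of these 3 was below 0 in every pair, and Ccnd3 lay close to the median of all genes. Cdk2, the partner of E- and A-type cyclins, had 0.028 in T1, -0.17 in T2 and -0.35 in T3 (mean -0.16 ± 0.19). Ccna2, the cyclin of S and G2 phase, had -0.23 in T1, -0.061 in T2 and -0.026 in T3 (mean -0.11 ± 0.11). Ccne1, the cyclin that fires the start of S phase, was the single member of the group with a mean above 0 (-0.073 in T1, 0.32 in T2 and 0.29 in T3; mean 0.18 ± 0.22, adjusted p = 0.34), with T1 on the other side of 0 from T2 and T3. The phosphatase Cdc25a had 0.22 in T1, -0.24 in T2 and -0.059 in T3 over 5 spots, a difference of T1 from T2 that outweighed its mean of -0.027.

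Cdk6, the other kinase of D-type cyclins, had 0.14 in T1, -0.16 in T2 and -0.10 in T3 (mean -0.039 ± 0.16), but its 3 probes did not read alike. The means of its spots were -0.20, -0.22 and 0.30, and the last was above 0 in every pair. The average of Cdk6 therefore stands for neither, and it turned sign under median centring.

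Neither measured CDK inhibitor passed the test. Cdkn2c (p18), which blocks Cdk4 and Cdk6, was below 0 in every pair with little spread (-0.24 in T1, -0.19 in T2 and -0.20 in T3; mean -0.21 ± 0.024, adjusted p = 0.197). Cdkn1b (p27), which binds cyclin-CDK complexes and holds cells in quiescence, had -0.22 in T1, 0.13 in T2 and 0.12 in T3, a mean of 0.010 ± 0.20. T1 was low and the other two pairs high. Without T2 or without T3 its mean was just below 0.

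Ccng2 and Cdk19, the members that passed, are not genes of replication or mitosis. Cdk19, a kinase of the Mediator complex that regulates transcription, had -0.31 in T1, -0.55 in T2 and -0.60 in T3. It was 1.4-fold lower (mean -0.49 ± 0.15, 95% interval -0.73 to -0.24, adjusted p = 0.046 by limma, n = 3). Ccng2, an unconventional cyclin raised in quiescent and arrested cells, had -0.34 in T1, -0.56 in T2 and -0.44 in T3, and was 1.36-fold lower (mean -0.45 ± 0.11, 95% interval -0.68 to -0.21, adjusted p = 0.0485 by limma). Every pair was lower than -0.3 for both. The probes of Ccng2 gave means of -0.45 and -0.44, while Cdk19 was read at 1 spot only. Both calls sit at the edge of the threshold. They were lost without T2 (adjusted p = 0.222 for Cdk19 and 0.223 for Ccng2), without T3 (0.278 and 0.27), after median centring (0.0607 and 0.0618) and with T2 turned (0.999 for both). The ratios themselves stayed near their size without T2 (-0.46 for Cdk19 and -0.39 for Ccng2) and without T3 (-0.43 and -0.45). Cdk19 was also lost after centring and scaling (0.0515), and Ccng2 with values on at least 2 arrays (0.0509). The paralogous cyclin Ccng1, a target of p53, had -0.037 in T1, -0.11 in T2 and -0.067 in T3 over 6 spots (mean -0.071 ± 0.036), close to the median of all genes.

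Several of the other 9 matches share a name with the family more than a role. Cdc37, a co-chaperone that loads kinases onto Hsp90, had -0.28 in T1, -0.24 in T2 and -0.11 in T3 (mean -0.21 ± 0.087, adjusted p = 0.208). Cdkn2aipnl had -0.21 in T1, -0.26 in T2 and -0.18 in T3 (mean -0.21 ± 0.038). Both were below 0 in every pair, as was the transcription kinase Cdk13 (mean -0.13). Cdk11b, a kinase of transcription and splicing, had the widest spread of the matches (0.23 in T1, -0.42 in T2 and -0.18 in T3). Its relative Cdk12 (mean -0.15), the CDK-activating kinase Cdk7 (-0.098), Mcm3ap (-0.065), which acts in mRNA export, Cdk16 (0.021) and the Cdk5 activator Cdk5r1 (0.076) changed sign between pairs. All 12 other matches were below 0 on T2, 7 on T1 and 9 on T3.

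**Figure D4:**
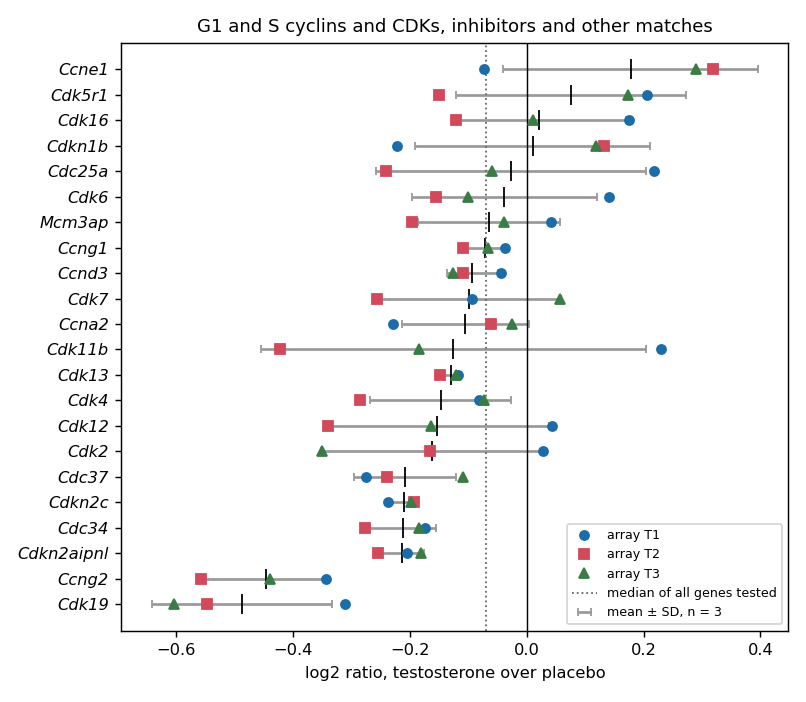
Log2 ratio of testosterone over placebo (horizontal axis) of the G1 and S phase cyclins and CDKs, the CDK inhibitors and the other matches on T1 (circles), T2 (squares) and T3 (triangles), with the mean (tick) and SD (bar, n = 3); the dotted line is the median of all genes tested. Cdk19 and Ccng2, the members that passed, lie below -0.3 on every array.

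Further genes of the same pathways came from lists that the symbols did not pick. Of 11 measured genes of replication 9 means were below 0 (81.8%, against 62.3% of all genes, median -0.10). As lower, 1 passed (9.09%, against 3.32% of all genes): Pold4, the small subunit of DNA polymerase delta. It had -0.92 in T1, -0.39 in T2 and -0.47 in T3 (mean -0.59 ± 0.28). Its adjusted p by limma was 0.046, and 0.151 without T2, 0.265 without T3 and 0.0668 after median centring. Rfc4, a subunit of the clamp loader, had -0.12 in T1, -0.13 in T2 and -0.46 in T3 (mean -0.24 ± 0.19), and Cdt1, which loads the MCM ring with Cdc6, had -0.040 in T1, -0.081 in T2 and 0.11 in T3. The partners of the MCM ring in these lists, Gins3 (mean -0.050) and Cdt1, thus did not lie as low as Mcm3, Mcm5 or Mcm7.

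Of 38 measured further genes of mitosis, 24 means were below 0 (63.2%, against 62.3% of all genes, median -0.096). None passed in either direction. At an unadjusted p under 0.05 there were 9 (23.7%, against 28.1% of all genes), of which 6 were below 0 in every pair and 3 above. The 2 of smallest p were above 0: Smc1a, a subunit of the cohesin ring (0.43 in T1, 0.39 in T2 and 0.40 in T3; mean 0.41 ± 0.020, adjusted p = 0.0515 by limma), and Incenp, the scaffold of the complex that holds Aurkb (0.25 in T1, 0.56 in T2 and 0.36 in T3; mean 0.39 ± 0.16, adjusted p = 0.0684 by limma). Smc1a passed without T1 (0.0398) and after median centring (0.0456), and Incenp without T1 (0.0167). Without T2 their adjusted p by limma was 0.22 and 0.278, and without T3 0.278 and 0.29. Leaving out T1 raised the count over all genes from 180 to 637, and median centring lowered it to 106. The 6 below 0, named after their values were seen, were Stmn1 (mean -0.40), which destabilises microtubules, Foxm1 (-0.40), a transcription factor of mitosis genes, Anapc5 (-0.36) and Anapc7 (-0.22) of the anaphase-promoting complex, the checkpoint protein Mad2l1 (-0.25) and Rad21 (-0.33). Rad21, the cohesin subunit that joins Smc1a in the ring, had -0.29 in T1, -0.40 in T2 and -0.29 in T3, opposite in sign to Smc1a in every pair. Incenp and its kinase Aurkb had means of opposite sign. The remaining gene above 0 was Anapc4, also of the anaphase-promoting complex. It had 0.16 in T1, 0.46 in T2 and 0.16 in T3 (mean 0.26 ± 0.17, adjusted p = 0.166 by limma). Measured subunits of this complex thus did not share a sign. Of 11 genes of E2F, Rb and checkpoint control, 5 means were below 0 (45.5%, median 0.013). As lower, 1 passed (9.09%, against 3.32% of all genes): Btg1, an antiproliferative factor of lymphoid cells. It had -0.83 in T1, -0.66 in T2 and -0.45 in T3 (mean -0.65 ± 0.19, 1.57-fold lower). Its adjusted p by limma was 0.0248, but 0.157 without T2 and 0.142 without T3. Wee1, the kinase that holds back Cdk1, had -0.28 in T1, -0.48 in T2 and -0.16 in T3 (mean -0.31 ± 0.16, adjusted p = 0.116).

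Repeated spots of a probe show the spotting and reading noise within an array, and not the error of labelling or hybridisation. For the 18 probes of members printed at more than 1 spot, the median SD between spots of a probe came to 0.034 (T1), 0.099 (T2) and 0.048 (T3), or 0.067 over the arrays, while the median SD between arrays was 0.17. The SD between arrays also holds labelling, hybridisation and the dye orientation of T2, so the share due to the mice was not measured. Of 26 members with more than 1 spot, 22 had spot means of 1 sign and 4 (Ccng1, Cdc27, Cdk6 and Cenph) of both signs. The duplicate spots of 1 probe each for Mcm2, Mcm3, Mcm5 and Mcm7 differed by 0.026 to 0.058 in their means. Different probes of a gene could lie farther apart, by 0.59 for the 2 probes of Cenpa and by up to 0.51 for the 3 of Cdk6. Bub1, Cdk19, Pold4, Smc1a and Incenp were each read at 1 spot, so probes could not be compared for them.

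**Figure D5:**
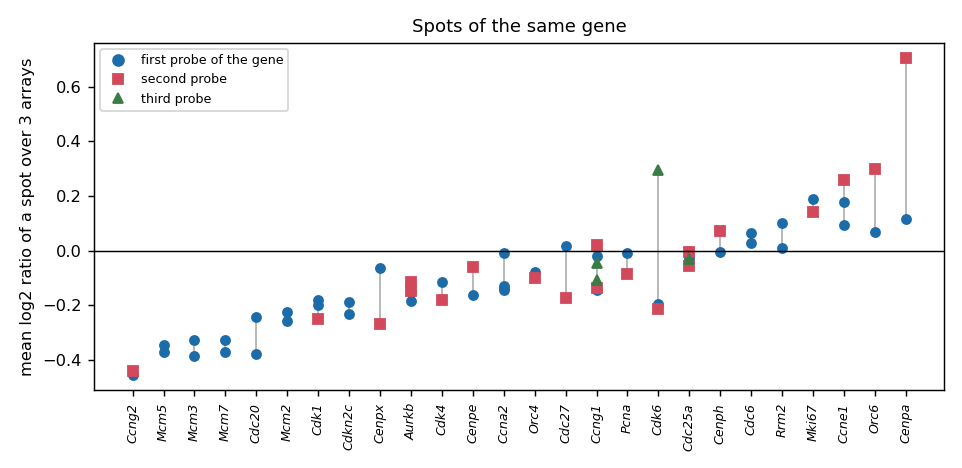
Mean log2 ratio over 3 arrays (vertical axis) of each spot of the 26 members with more than 1 spot, coloured by probe; grey lines join the spots of a gene. Spots of the Mcm genes, of 1 probe each, lie together, and the different probes of Cdk6 and Cenpa lie far apart.

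Markers of the cell types in bone and marrow were read beside these genes. Of 23 listed B-lineage markers 10 were measured and 7 passed as lower, with a median of -1.95 (T1 -2.11, T2 -2.16 and T3 -1.60) and means from -2.98 to 0.087. B-cell precursors divide and use the MCM genes, Ccnd3 and Btg1 too, and the part of this lower B-lineage RNA in the members' ratios was not tested. The 5 neutrophil markers differed between pairs (medians 0.60, 0.11 and -0.15 in T1, T2 and T3) and the 3 erythroid markers had medians of 0.12, -0.18 and 0.047. Muscle markers were low on T2 (median -0.82, with -0.032 on T1 and -0.45 on T3), the pair in which Mcm3, Mcm5, Mcm7 and Cdc20 were lowest. The 4 osteoblast and matrix markers were lower still there (median -1.08, with 0.0055 for T1 and -0.22 for T3), and the part of either list in the members' ratios was not tested. Medians of the 8 monocyte and macrophage markers were 0.25, 0.11 and 0.12. By limma, 1 of these 4 osteoblast and matrix markers and 1 of 3 adipocyte markers passed as lower, and 0 of the neutrophil, erythroid, muscle, monocyte and macrophage, megakaryocyte or osteoclast markers passed. Of the 11 T-cell markers, 0 had a value on all arrays.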

How the data were processed

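The authors deposited 1 signed log ratio per spot and array, treated here as log2 because of the range of the deposited values; for the log base, scanner, background correction, normalization and spot filter, nothing was stated in the labels read here. Of 11552 spots, 8050 carried exactly 1 annotated gene, 672 several and 2830 none. Symbols were updated through Entrez IDs with the RefSeq table of GRCm38.p6, which matched 7880 spots; 66 control or non-mouse spots were left out. Only spots complete over the 3 arrays were averaged per gene and array (4588 spots, 3493 genes, 857 with more than 1 spot; 100 spots for the 60 members), with no further normalization. Different probes of a gene were averaged too. In R 4.3.3, limma 3.58.1 (lmFit, then eBayes) tested each gene's mean log ratio against 0 two-sidedly; p-values were Benjamini-Hochberg adjusted over all genes and called under 0.05; 95% intervals use the moderated standard error. The procedure was tested on simulated data. Values on every array are given for the 4 members of smallest p in each role, for a fixed list of core genes and for the 3 members of largest SD, and in each pathway list for the 2 genes of smallest p; others are added as the text needs them. Members and lists were chosen with earlier results of these data known. Whether replicates were from separate cages or batches is not given. The p-values rest on the spread between these 3 arrays, moderated by limma with the spread over all genes. That spread also holds labelling, hybridisation and the dye orientation of T2. The alternatives were the sign of T2 turned, each array left out, a dye term, centring, centring with scaling, values on at least 2 arrays, all spots averaged, annotation symbols, robust eBayes, a threshold of 0.10 and single spots. No filter on low values could be run, because the table holds ratios without intensities.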

Additional observations from a re-analysis of the deposited data

How the results depend on the processing

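The count of genes passing by limma, 180 (64 higher, 116 lower), was 0 with T2 turned, 106 (46 higher, 60 lower) after median centring, 318 (210 higher, 108 lower) after centring and scaling, 414 with a dye term, 503 at a threshold of 0.10, and 33 to 637 with 1 array left out (without T1 637, without T2 36 and without T3 33). The 2 members passing became 0 with T2 turned, after median centring and for single spots, 1 (Cdk19) with values on at least 2 arrays, 5 (Bub1, Ccng2, Cdk19, Cenpa and Mcm3) with a dye term, 7 at a threshold of 0.10, and 0 to 5 with 1 array left out; 3 passed after centring and scaling (Bub1, Ccng2 and Cenpa). The replication median, -0.098, was 0.0090 with T2 turned, -0.029 after median centring and -0.035 after centring and scaling; that of mitosis, -0.080, was -0.0068, -0.011 and -0.022, and -0.068 to -0.056 with 1 array left out. Annotation symbols left these values as they were, and with all spots averaged they were 190 genes (70 higher, 120 lower), 2 members, -0.10 and -0.088.

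Members with a mean below 0 numbered 44 of 60, and 37 after median centring, 38 after centring and scaling and 33 with T2 turned. Over all 3493 genes these counts were 2175, 1750, 1749 and 1678, so the members' share stayed above that of all genes in each setting. Single genes were followed only for the 39 chosen to be given on every array; among these, direction was lost with T2 turned for Aurkb (0.11), Bub1 (-0.082), Ccnb2 (0.029), Ccne1 (-0.034), Cdc20 (0.045), Cdk11b (0.16), Cdk4 (0.043), Cdk6 (0.066), Cdkn1b (-0.079), Mcm2 (0.026), Mcm3 (0.022), Mcm7 (0.035) and Wee1 (0.012). It was lost after median centring for Bub1b (0.033), Cdk6 (0.030) and Pcna (0.021), after centring and scaling for Bub1b (0.017) and Cdk6 (0.036), and with a dye term for Cenpk (0.012). With 1 array left out it turned for Cdk11b (-0.30 to 0.022), Cdk6 (-0.13 to 0.020), Cdkn1b (-0.051 to 0.13), Cenpk (-0.25 to 0.028) and Pcna (-0.12 to 0.015). The cause was not tested, beyond what turning the sign or dropping an array does by construction. Each array already is 1 pair, so the test of the ratios against 0 is itself the paired analysis, and no unpaired alternative was run. No spot brightness was available here to set a depth limit; the median standard error of a gene was 0.107, and 0.139 without T1.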

Other observations

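The 14 genes that matched the symbols without a value on all arrays were in no test. Top2a, the topoisomerase that untangles sister chromosomes, had a value on T1 alone (-0.24). Cdkn1a (p21), the CDK inhibitor induced by p53, had -0.16 on T1 and -0.048 on T2. Ccnd1, a D-type cyclin, had 0.057 on T1 at one spot and 0.48 on T2 and 0.35 on T3 at another; with all spots averaged it would be a member, making 61. Subunits of the anaphase-promoting complex had values on 2 arrays each: Cdc16 0.10 on T2 and -0.037 on T3, and Cdc23 -0.20 on T1 and -0.13 on T3. Mcm9, an MCM relative outside the ring, had -0.16 on T1 and -0.087 on T3. Cenpj had -0.14 on T2 and -0.0030 on T3, and the spots of Cenpv lay from -0.051 to 0.18 on T1 and T3. On T1 alone, Cdkn1c had 0.32, Cdc40 0.032, Cdk14 -0.041 and Cdk20 0.0060. Cdk18 and Cdkn2b had no value on any array.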
